A study of Homo sapiens with 7 samples.

Results

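HDLM-2 and L-540 are established cell lines from Hodgkin lymphoma (HL), a lymphoma whose malignant Hodgkin/Reed-Sternberg (HRS) cells usually descend from B-cells, while both of these lines are held to have arisen from T-cells. They are 2 of the 7 HL cell lines profiled in the series, and they were set against each other by line name, with 1 array each. HDLM-2 and L-540 cells were grown without any treatment named in the labels, total RNA was taken up in Trizol, and biotinylated cRNA was hybridised to Affymetrix HG U133 Plus 2.0 arrays. The study dealt with NKL homeobox genes in HL and used expression profiles of HL lines to compare, among others, the TLE co-repressor genes. The labels give HDLM-2 as a title and spell it HDML-2 in the cell line field, and they give neither line a cell of origin. With 1 array per line, no value below has a replicate, and no test was possible. The arrays of the series came from 2 laboratories without a statement of which made which array, so line and laboratory cannot be told apart.

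T-cells carry a receptor whose signal passes through the CD3 and CD247 chains, and cytotoxic T- and NK-cells store perforin and granzymes in granules that are released onto a target cell. Helper T-cells are known by the cytokines they release, and HRS cells are known for releasing chemokines that draw other leukocytes, for constant JAK-STAT and NF-kB signalling, and for surface ligands that inhibit T-cells. Homeobox genes encode transcription factors, of which the HOX genes lie in clusters and the NKL genes form a related subclass active in lymphoid development.

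All levels are log2 values of a probe set, that is, of several short probes designed for 1 transcript. Where a line's level is given for a gene, it is that of its brightest probe set by the mean of the 7 lines, and a difference is HDLM-2 minus L-540 as the median over the gene's usable probe sets. Olfactory receptor genes, held to be silent in these cells, gave the background level, set at the 95th percentile of their 107 probe sets. It was 4.86 in HDLM-2 and 4.51 in L-540. A probe set was usable where the brighter array lay above its own background, and a level under background was raised to it, so that the size of such a difference is a lower bound. A single bound is given as "at least", and a median or range over several probe sets can hold bounds as well. A gene was called where at least 2 usable probe sets differed by 2 or more on the log2 scale, a fold of 4, in the same direction and none did so in the other. Genes with 1 usable probe set past that fold were kept apart, since no other probe set could agree or disagree. Differences of probe sets of the same gene scattered around the gene's mean with a standard deviation of 0.57 (16261 probe sets of 5932 genes), and of 0.47 where both lines were above background. This spread holds no variation between cultures. Noise of the probes was not separated in it from differences between the transcripts that probe sets of a gene read.

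Both arrays had like medians, at 4.36 in HDLM-2 and 4.37 in L-540, and 10540 genes lay above background in HDLM-2 against 11443 in L-540. The 3′ minus 5′ level of ACTB, a sign of RNA integrity, was 0.54 in HDLM-2 and 0.37 in L-540, and the 18S ribosomal probe sets averaged 5.86 in HDLM-2 and 7.06 in L-540. The part of these values in any difference below was not tested. The 29 measured genes that every cell uses had no member called and a median difference of 0.05.

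The T-cell label was checked against marker genes. Of 16 T-cell markers on the array, 6 were above background in HDLM-2 (CD247, CD2, CD4, CD5, LAT and GATA3) and 9 in L-540 (these 6 with CD3D, CD3E and TRBC1), while the other lines had 3 to 7. CD247, the zeta chain of the T-cell receptor complex, stood at 9.81 in HDLM-2 and 9.90 in L-540, and did not exceed 4.74 in any other line. CD2, an adhesion receptor of T- and NK-cells, stood at 8.95 in HDLM-2 and 7.28 in L-540, against at most 4.86 elsewhere. TRBC1, a constant part of the receptor's beta chain, stood at 3.66 in HDLM-2, below background, and at 5.60 in L-540, above it. The CD3 chains were at or near background, with CD3D at 4.36 in HDLM-2 and 4.65 in L-540, CD3E at 4.06 in HDLM-2 and 4.71 in L-540, and CD3G below background in both. LCK and ZAP70, the kinases next to the receptor, and the costimulatory receptor CD28 were below background in both lines as well. Of 8 B-cell markers, 4 were above background in each line, and PAX5, the B-cell lineage factor, stood at 5.74 in HDLM-2 and 5.68 in L-540. All 6 HRS cell markers were above background in both lines. CD247 was above background in these lines alone. CD2 was also above background in SUP-HD1, at 4.58 against a background of 4.49, so it was not restricted to them.

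Among 5932 genes with at least 2 usable probe sets, 177 were called higher in HDLM-2 (2.98%) and 86 higher in L-540 (1.45%). Among 6426 genes with 1 usable probe set, 268 passed the fold in HDLM-2 (4.17%) and 142 in L-540 (2.21%). Of the 263 genes called by several probe sets, 67.3% were thus higher in HDLM-2. With the higher of both backgrounds as the floor of both arrays, an alternative chosen after the data were seen, this share was 63.6%, with 150 genes higher in HDLM-2 and 86 in L-540. The called genes made up 4.43% of those compared, and in the other 20 pairs of lines the share ran from 4.38% to 6.31%. HDLM-2 and L-540 correlated at r = 0.894 over all probe sets, at the upper end of the other pairs (0.801 to 0.894). At the limit, CYP1B1 was called with a second-largest probe set difference of 2.00, while ST6GALNAC4 at 1.99 was not. In the other direction ATXN1 was just inside at 2.00 in favour of L-540, and CCL5, a chemokine, just outside at 1.98.

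**Figure D1:**
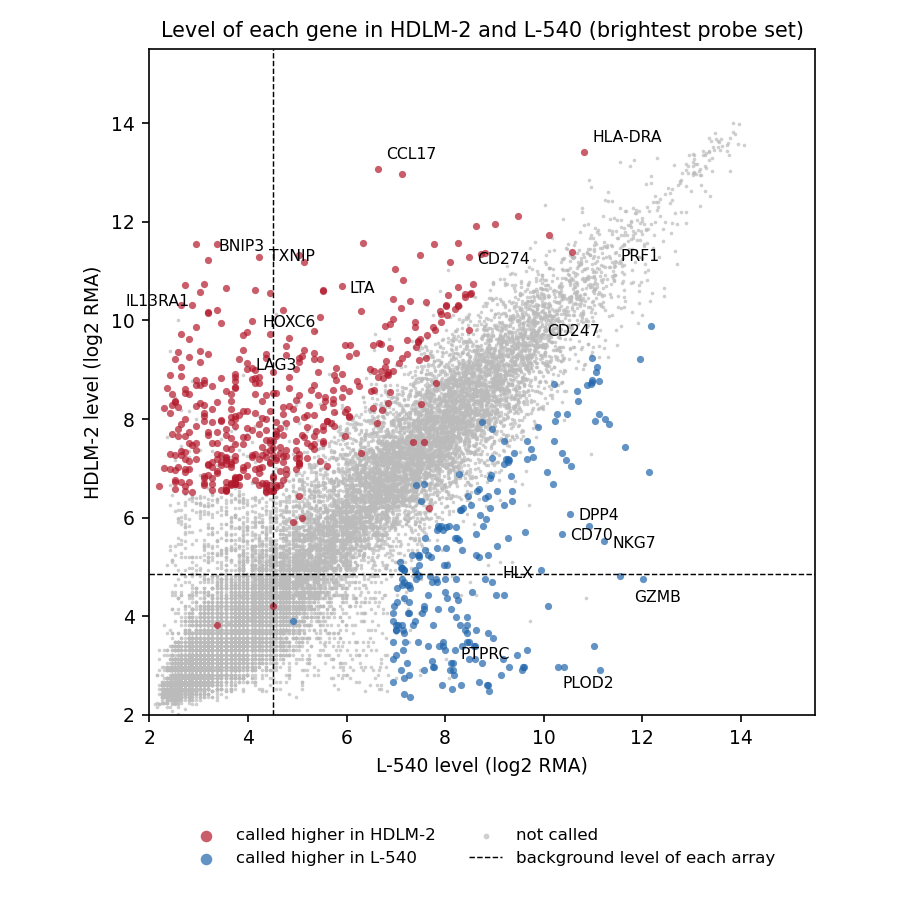
Log2 level of each of 19740 genes in HDLM-2 (vertical axis) against L-540 (horizontal axis), 1 array per line, at its brightest probe set. Red points were called higher in HDLM-2 and blue points higher in L-540, by several probe sets or past the fold at the only usable probe set, and dashed lines give the background of each array (4.86 in HDLM-2, 4.51 in L-540); CCL17 lies far above the diagonal and GZMB far below it, while PRF1 lies on it.

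Among the 177 genes higher in HDLM-2, HDLM-2 lay above its background and above all 5 other lines for 94. For 45 of the 177, L-540 lay below all 5 others while each of these was above its own background. Among the 86 genes higher in L-540, L-540 lay above its background and all 5 others for 57, and HDLM-2 lay below 5 others that were all above background for 17. A bound entered the difference of 136 of the 177 genes and of 61 of the 86. All usable probe sets passed the fold in 100 of the 177 genes and in 39 of the 86, and the median difference was 2.76 in the 177 genes and -2.50 in the 86.

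The largest agreed difference was that of TXNIP, which encodes the inhibitor of thioredoxin. TXNIP stood at 11.29 in HDLM-2 and 4.22 in L-540, where it was below background, and its 3 probe sets differed by 5.75, at least 6.78 and at least 6.80. KM-H2 was also below background at 3.73, and the median of the other 5 lines was 9.87. BNIP3, a mitochondrial protein induced by low oxygen, stood at 11.23 in HDLM-2 and 3.20 in L-540, a difference of at least 6.29. The other 5 lines had BNIP3 levels of 9.76 to 11.53, so L-540 stood alone with this low level. The small GTPase RRAS2 behaved alike, with 9.62 in HDLM-2, 2.80 in L-540 and 6.32 to 9.68 elsewhere.

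Other genes with large differences toward HDLM-2 had varied roles. TGFBR3, the co-receptor betaglycan of the TGF-beta family, stood at 10.07 in HDLM-2 and 5.47 in L-540, and its 2 probe sets, above background in both lines, differed by 4.35 and 4.60. FCER2, the low-affinity IgE receptor CD23 of activated B-cells, stood at 9.24 in HDLM-2 and 4.37 in L-540, a difference of at least 4.50. In the other 5 lines TGFBR3 did not exceed 8.57, and FCER2 had a median of 4.36 and reached 8.84 in L-1236. The retinol dehydrogenase RDH10 (10.62 in HDLM-2, 5.52 in L-540) and the co-chaperone gene DNAJC5B (9.41 in HDLM-2, 3.91 in L-540) differed by 4.84 and at least 4.93. RRAD, a small GTPase, had 3 probe sets that differed by 4.71, at least 4.50 and at least 0.64, and HDGFL3 had 7 usable probe sets, all bounds, between 1.27 and 6.20. FILIP1L stood at 8.88 in HDLM-2 and 2.65 in L-540, and both usable probe sets differed by at least 4.37.

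In the other direction, PLOD2, a lysyl hydroxylase of collagen, stood at 2.97 in HDLM-2 and 10.29 in L-540, and its 2 probe sets differed by at least 5.43 in favour of L-540. No other line had more than 7.73. RFLNB, which encodes the filamin-binding protein refilin B, stood at 5.84 in HDLM-2 and 10.92 in L-540, a difference of -5.32 with both lines above background.

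DPP4, the T-cell surface peptidase CD26, and ADA, the adenosine deaminase that binds to it in humans, were both higher in L-540. DPP4 stood at 6.08 in HDLM-2 and 10.54 in L-540, and its 3 probe sets, above background in both lines, lay between -4.99 and -4.46. ADA stood at 5.71 in HDLM-2 and 9.62 in L-540, a median of -4.15 over 2 probe sets of which 1 was a bound. PTPRC, the leukocyte phosphatase CD45 that controls the first step of antigen receptor signalling, stood at 2.97 in HDLM-2 and 9.57 in L-540. Of its 4 usable probe sets, 3 differed by at least 4.22 in favour of L-540 and the fourth by at least 0.28. HDLM-2 thus gave no PTPRC signal above background at any of these probe sets. At the brightest probe set U-HO1 was low as well at 2.61, and the median of the other 5 lines was 6.97.

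Among the other genes higher in L-540, SERTAD2 (4.93 in HDLM-2, 9.94 in L-540) was low in HDLM-2 relative to all other lines, which had at least 7.85. CENPV (2.61 in HDLM-2, 8.84 in L-540) was below background in HDLM-2, as it was in KM-H2 at 3.36. GYG1, which encodes the glycogen primer glycogenin, stood at 7.89 in HDLM-2 and 11.32 in L-540, and no other line exceeded 8.79. WIPI1, a protein of autophagosome formation, stood at 4.75 in HDLM-2 and 8.80 in L-540, and KLHL14 at 2.90 in HDLM-2 and 9.55 in L-540. The potassium channel gene KCNK1 stood at 3.14 in HDLM-2 and 9.18 in L-540, near the 8.70 of U-HO1. Of these 24 genes with the largest agreed differences, HLA-DQA1 and IL13RA1 are described with their groups below, and IGF1R with the receptor kinases.

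**Figure D2:**
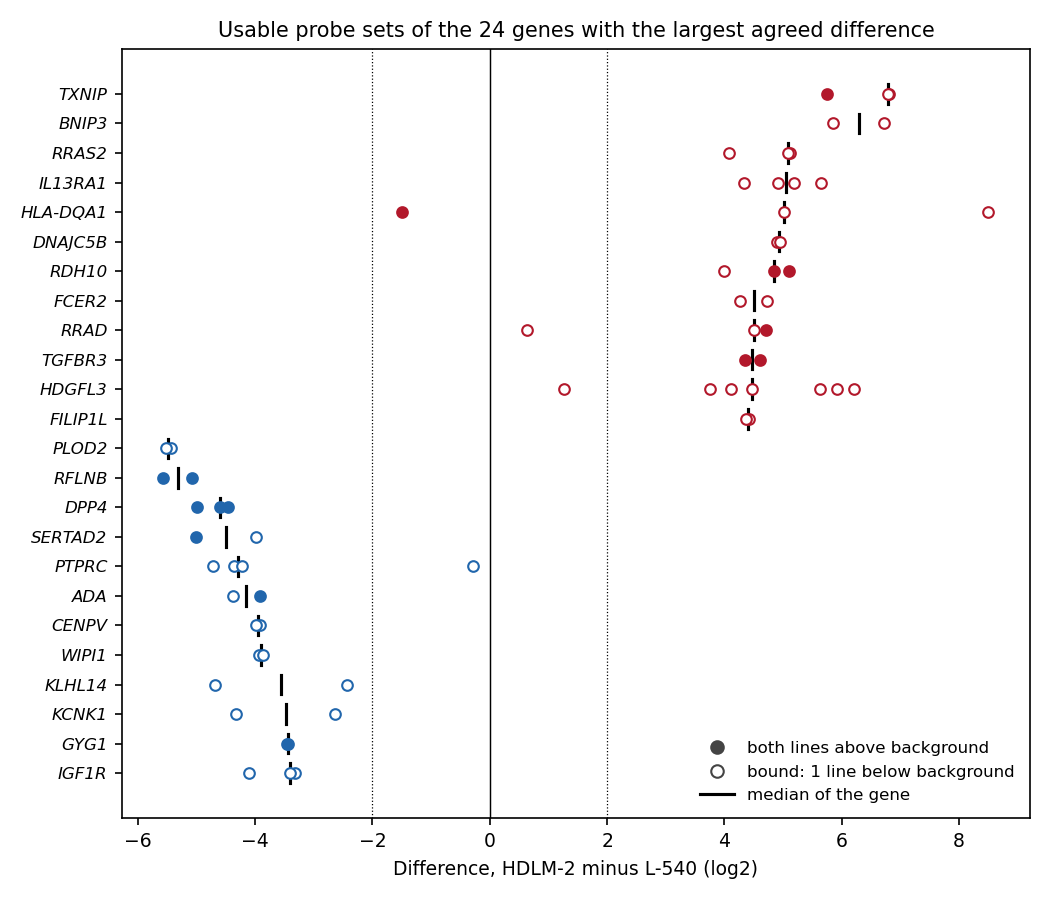
Difference HDLM-2 minus L-540 (log2, horizontal axis) at each usable probe set of the 12 genes with the largest agreed difference in each direction, red for higher in HDLM-2 and blue for higher in L-540. Filled points are probe sets above background in both lines, open points are bounds, vertical bars are medians and dotted lines mark the fold of 4; single probe sets of HLA-DQA1, RRAD, HDGFL3 and PTPRC lie far from the others of their gene.

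Some of the cytotoxic genes separated the lines widely. Of 22 measured genes for cytotoxic granules and NK-cells, 0 passed the fold higher in HDLM-2 and 3 higher in L-540 (13.6%), against 3.60% and 1.84% of all genes, and their median difference was -0.35, against 0 over all 12358 measured genes. All 3 rest on 1 probe set. GZMB, granzyme B, stood at 4.75 in HDLM-2, below background, and at 12.01 in L-540, a fold of at least 142. None of the other lines exceeded 4.54, so this level was reached by L-540 alone. NKG7, a granule membrane protein, stood at 5.52 in HDLM-2 and 11.22 in L-540, a difference of -5.70, and at most at 4.77 elsewhere. GZMH, granzyme H, stood at 3.31 in HDLM-2 and 7.14 in L-540, a difference of at least 2.28 in favour of L-540. Its sequence is close to that of GZMB, and whether its probe set reads GZMB in part was not tested.

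Perforin, the partner of the granzymes, did not separate the lines. PRF1 stood at 11.08 in HDLM-2 and 11.34 in L-540, with probe set differences of -0.26 and -0.11, within the spread between probe sets, and it did not exceed 6.19 in the other 5 lines. GNLY, granulysin, and GZMA, granzyme A, were below background in both. Of the 33 genes of this list on the array, 19 were above background in L-540 and 12 in HDLM-2. Over all 19740 genes the counts were 11443 in L-540 and 10540 in HDLM-2, and L-540 had the lower background level. Those above background in L-540 only included receptors of NK-cells, chosen here after their values were seen. All of these receptors stayed under the fold because HDLM-2 was at background. CD160 stood at 2.81 in HDLM-2 and 6.85 in L-540, KLRB1 at 3.05 in HDLM-2 and 6.70 in L-540, KLRF1 at 2.53 in HDLM-2 and 6.70 in L-540, and KIR2DL4 at 3.31 in HDLM-2 and 6.20 in L-540.

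The promoter of GZMB is shown because this gene led the cytotoxic genes higher in L-540, and that of HLX because it led the homeobox genes in that direction. Each sequence is the 250 bases before the annotated start, 5′ to 3′ on the gene's strand, from RefSeq for GRCh38.p14, at chr14:24634191-24634440 on the minus strand for GZMB and at chr1:220879193-220879442 on the plus strand for HLX. Capitals mark TGANTCA, the element of AP-1 factors, and CCAAT, the element of the factor NF-Y, on either strand. On the other strand CCAAT reads ATTGG. Of 27305 promoters of the same length 6.60% held TGANTCA and 33.0% held CCAAT.
GZMB: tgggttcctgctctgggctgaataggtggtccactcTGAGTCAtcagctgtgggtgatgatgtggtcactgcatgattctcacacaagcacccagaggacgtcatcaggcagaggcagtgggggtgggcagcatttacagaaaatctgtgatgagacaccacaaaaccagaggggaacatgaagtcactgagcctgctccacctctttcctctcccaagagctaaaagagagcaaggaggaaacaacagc
HLX: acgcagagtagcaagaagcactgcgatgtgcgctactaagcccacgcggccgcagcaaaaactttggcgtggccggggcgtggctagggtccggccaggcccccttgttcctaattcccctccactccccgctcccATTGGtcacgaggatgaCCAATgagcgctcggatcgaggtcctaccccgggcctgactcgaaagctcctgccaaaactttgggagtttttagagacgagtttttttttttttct
GZMB had a match to TGANTCA and none to CCAAT, and HLX had a match to CCAAT on each strand and none to TGANTCA. A match describes these letters only, and no binding was measured.

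Genes for the surface and signalling of T-cells split in direction. Of 19 measured genes of the T-cell receptor complex and T-cell surface, 4 were higher in HDLM-2 (21.1%, against 3.60% of all measured genes) and 0 in L-540, with a median difference of 0. LAG3, an inhibitory receptor of T-cells that binds MHC class II, stood at 9.13 in HDLM-2 and 3.99 in L-540, a fold of at least 24.6, and did not exceed 3.96 in the other 5 lines. SIT1, an adaptor that interacts with receptor signalling, stood at 8.86 in HDLM-2 and 4.22 in L-540. THEMIS, a regulator of T-cell development, stood at 8.22 in HDLM-2 and 2.30 in L-540, and was not particular to HDLM-2, since the median of the other 5 lines was 8.62. SLAMF1, a co-receptor of T- and B-cells, stood at 9.24 in HDLM-2 and 7.61 in L-540, and its 3 probe sets lay between 1.63 and 2.44.

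Of 25 measured T-cell receptor signalling genes, 1 was higher in HDLM-2 (4%) and 3 in L-540 (12%, against 1.84% of all genes), PTPRC among them. NFATC2, a transcription factor activated by calcium, stood at 6.90 in HDLM-2 and 4.22 in L-540, with bounds of 2.39 and 2.70 at its 2 usable probe sets. SH2D2A, an adaptor of T-cells, stood at 7.31 in HDLM-2 and 9.39 in L-540, a difference of -2.08. LCP2, the adaptor SLP-76, was called higher in L-540 on the strength of part of its 5 usable probe sets, all bounds, which ran from -3.14 to 0 with a median of -0.89.

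Cytokine genes were called in both directions. Of 27 measured cytokine genes 3 were higher in HDLM-2 (11.1%) and 2 in L-540 (7.41%), against 3.60% and 1.84% of all genes, with a median difference of -0.20. IL13, a type 2 cytokine and growth factor of HRS cells, stood at 8.56 in HDLM-2 and 6.05 in L-540, a difference of 2.51, and reached 8.94 in SUP-HD1. IL6, an inflammatory cytokine, stood at 8.51 in HDLM-2 and 3.66 in L-540, at least 4.0 apart, and L-540 lay below all other lines, which had 6.02 to 8.94. IL12A, a subunit of interleukin-12 and interleukin-35, stood at 7.12 in HDLM-2 and 4.44 in L-540.

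Higher in L-540 were IL26 and IL1RN. IL26, a cytokine of helper and NK-cells, stood at 8.37 in HDLM-2 and 10.70 in L-540, a difference of -2.33, and among the other lines it was high in SUP-HD1 alone at 9.39. IL1RN, the antagonist of the interleukin-1 receptor, stood at 5.04 in HDLM-2 and 7.98 in L-540, and its 4 usable probe sets ran from -5.19 to 0. Under the fold, and chosen after their values were seen, were a few cytokines that mark helper subsets. IL4 stood at 5.71 in HDLM-2 and 2.87 in L-540, at least 1.20 apart, while IFNG stood at 2.81 in HDLM-2 and 6.02 in L-540 and IL22 at 3.73 in HDLM-2 and 5.99 in L-540, in both cases below background in HDLM-2. IL5 was below background in both lines. IL15 stood at 8.56 in HDLM-2 and 7.13 in L-540, and its 2 probe sets differed by 1.43 and at least 2.69.

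Cytokine receptors counted 3 higher in HDLM-2 and 3 in L-540 among 42 measured (7.14% each, against 3.60% and 1.84% of all genes), with a median of 0.22. IL13RA1, a chain of the receptor for interleukin-13, stood at 10.16 in HDLM-2 and 3.20 in L-540, and all 4 probe sets differed by at least 4.33 to 5.65. The other 5 lines had IL13RA1 at 6.41 to 9.59, so L-540 was the only line of the series below background at this probe set. The ligand IL13 and this receptor chain were thus both higher in HDLM-2, whereas IL4R, the other chain of that receptor, stood at 7.59 in HDLM-2 and 7.80 in L-540. IL3RA, the receptor of interleukin-3, stood at 8.77 in HDLM-2 and 6.22 in L-540.

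The receptors higher in L-540 included that for interleukin-12. IL12RB2, its inducible chain, stood at 2.90 in HDLM-2 and 8.17 in L-540, at least 3.31 apart, and did not exceed 4.37 elsewhere. Its partner IL12RB1 stood at 7.31 in HDLM-2 and 8.23 in L-540, and STAT4, the factor activated by this receptor, at 2.97 in HDLM-2 and 6.38 in L-540, a bound of 1.52 in favour of L-540 and under the fold. IL20RB, a chain of the interleukin-20 receptors, stood at 2.90 in HDLM-2 and 7.10 in L-540. CSF1R, the receptor of the macrophage growth factor CSF1, stood at 5.24 in HDLM-2 and 7.65 in L-540.

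Chemokine genes were called more often in HDLM-2 than in L-540. Of 18 measured chemokines and chemokine receptors 5 were higher in HDLM-2 (27.8%) and 1 in L-540 (5.56%), against 3.60% and 1.84% of all genes, 12 were called in neither, and the median difference was 0.69. CCL17, the chemokine TARC that attracts CCR4-bearing T-cells and is a serum marker of HL, stood at 13.07 in HDLM-2 and 6.64 in L-540, an 86.2-fold difference, with L-540 the lowest and HDLM-2 the highest of the 7 lines. CCL22, a further ligand of CCR4, stood at 7.96 in HDLM-2 and 5.60 in L-540, a difference of 2.36, and at most at 6.52 elsewhere. CCR4 itself stood at 7.52 in HDLM-2 and 3.38 in L-540, at least 3.01 apart. Receptor and both ligands were therefore higher in HDLM-2, each on a single probe set.

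CCL19, a ligand of CCR7, stood at 8.04 in HDLM-2 and 3.66 in L-540, while CCR7, the homing receptor for lymph nodes, stood at 12.22 in HDLM-2 and 11.64 in L-540. CX3CL1, a membrane-bound chemokine, stood at 7.11 in HDLM-2 and 5.03 in L-540, and both probe sets passed the fold with 2.08 and at least 2.96. CXCL12 was not called, as its 2 probe sets differed by 1.31 and at least 3.75. CXCR4, the receptor of CXCL12, stood at 8.95 in HDLM-2 and 11.07 in L-540, and its 3 probe sets lay between -2.18 and -2.12. Receptor and ligand thus differed in opposite directions between the lines, with only the receptor called.

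Of 25 measured TNF ligands and receptors 4 were higher in HDLM-2 (16%) and 2 in L-540 (8%), against 3.60% and 1.84% of all genes, with a median of 0.23. LTA, lymphotoxin alpha, stood at 10.69 in HDLM-2 and 5.90 in L-540, a 27.7-fold difference, with HDLM-2 above and L-540 below all other lines (7.45 to 9.31). TNF stood at 6.83 in HDLM-2 and 3.82 in L-540. CD40, the receptor of antigen-presenting cells for T-cell help, stood at 8.59 in HDLM-2 and 6.55 in L-540, and its 4 probe sets, of which 3 were bounds, ran from 0.47 to 3.76. The death receptor gene TNFRSF25 stood at 7.13 in HDLM-2 and 4.71 in L-540.

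CD70, the ligand of CD27, was higher in L-540, with 5.67 in HDLM-2 and 10.37 in L-540. The other 5 lines had CD70 at 7.92 to 10.83, so HDLM-2 was the low line. TNFRSF1B, a receptor for TNF and lymphotoxin, stood at 4.81 in HDLM-2 and 7.69 in L-540 and at most at 5.52 elsewhere. Both ligands of TNFRSF1B were thus higher in HDLM-2 and the receptor in L-540. TNFRSF8, the HL marker CD30, was under the fold with 9.47 in HDLM-2 and 10.99 in L-540, the highest levels of the series.

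**Figure D3:**
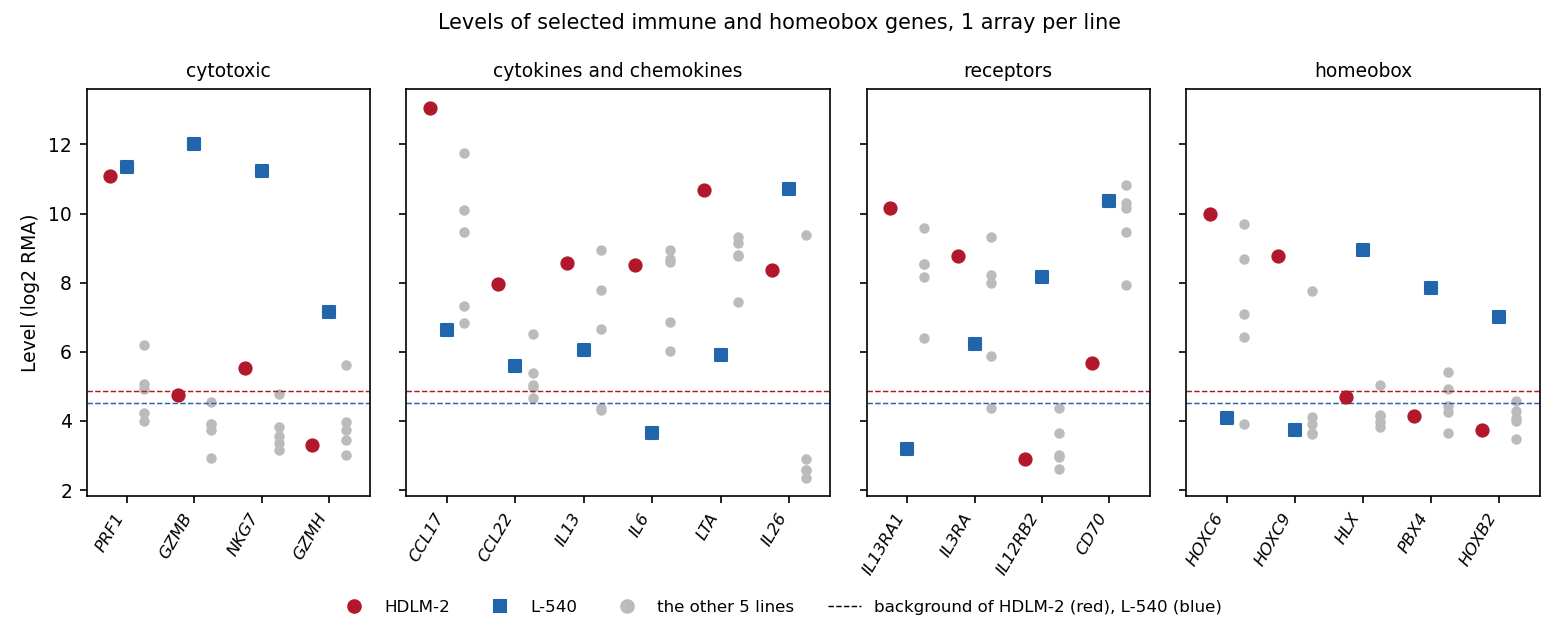
Log2 levels (vertical axis) of selected cytotoxic, cytokine, receptor and homeobox genes in HDLM-2 (red circles), L-540 (blue squares) and the other 5 lines (grey), 1 array per line. The background was 4.86 in HDLM-2 and 4.51 in L-540 (dashed); PRF1 is alike in HDLM-2 and L-540 at 11.08 and 11.34, while GZMB, NKG7, HLX and IL12RB2 are high in L-540 alone, and IL13RA1 and IL6 are lowest in L-540.

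Some homeobox genes of the HOXC cluster were higher in HDLM-2, and those of the HOXB cluster differed little at the median. Of 16 measured HOX genes 3, all of the HOXC cluster, passed the fold in HDLM-2 (18.8%) and 1 in L-540 (6.25%). The shares of all genes were 3.60% and 1.84%. Each of these HOX genes rests on a single probe set. HOXC6 stood at 9.99 in HDLM-2 and 4.08 in L-540, a fold of at least 44.6, and HOXC9 at 8.78 in HDLM-2 and 3.73 in L-540, a fold of at least 19.3. Both lay above all other lines in HDLM-2, although KM-H2 came near with 9.70 for HOXC6 and 7.75 for HOXC9. HOXC4 stood at 7.38 in HDLM-2 and 4.97 in L-540, a difference of 2.41.

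Over 7 measured HOXC genes, 3 of them past the fold, the median difference was 1.45, ranging from -0.05 at HOXC8 to 5.48 at HOXC6. Over 9 measured HOXB genes it was -0.20. HOXB9, for example, stood at 8.80 in HDLM-2 and 9.64 in L-540, both above the other lines, which had at most 7.63. The exception in the HOXB cluster was HOXB2, at 3.73 in HDLM-2 and 7.0 in L-540, at least 2.14 in favour of L-540 and at most at 4.58 elsewhere.

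Of 58 measured NKL and other homeobox genes 1 was higher in HDLM-2 and 2 in L-540, shares of 1.72% and 3.45% against 3.60% and 1.84% of all genes. HLX, an NKL homeobox gene of haematopoietic and helper T-cell development, stood at 4.69 in HDLM-2 and 8.96 in L-540, a fold of at least 17.1, and at most at 5.05 elsewhere. PBX4, a partner of HOX proteins, stood at 4.14 in HDLM-2 and 7.86 in L-540. IRX3, of the Iroquois family, stood at 7.27 in HDLM-2 and 2.52 in L-540, and no other line exceeded 3.99. The NKL homeobox genes NKX2-2 and MSX1, which the study dealt with, were below background in both lines.

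Of the remaining genes named in the study, AUTS2, a chromatin regulator, stood at 8.68 in HDLM-2 and 3.03 in L-540, at least 4.17 apart at its only usable probe set of 3. FLI1, an ETS factor, stood at 6.26 in HDLM-2 and 8.53 in L-540, with 3 probe sets from -2.27 to -1.76, and at most at 6.27 elsewhere. PCGF5, a polycomb protein, and TLE3, a co-repressor, were called in opposite directions with mixed probe sets, with a median of 1.65 and a range of 0.92 to 3.70 for PCGF5, and a median of -1.76 and a range of -2.56 to -0.74 for TLE3. TLE4 stood at 7.37 in HDLM-2 and 3.03 in L-540 without being called, since only 1 of its 4 usable probe sets passed the fold. All 4 were bounds, with a median of 1.38. TLE2 stood at 4.81 in HDLM-2 and 6.55 in L-540, and TLE5, TLE6, STAT3, SMURF2 and DAZAP2 differed by less than 1 at the median. CACNA2D2 stood at 4.69 in HDLM-2 and 6.50 in L-540, under the fold. TLE1, IL17RB, IL25 and CACNA2D3 were below background in both lines.

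Among 56 measured T-cell and lymphoid transcription factors 5 were higher in HDLM-2 (8.93%) and 7 in L-540 (12.5%), against 3.60% and 1.84% of all genes. TCF4, an E-protein of B-cell and dendritic cell development, passed the fold at all 8 probe sets with 2.32 to 3.81, and stood at 11.55 in HDLM-2 and 7.77 in L-540. L-540 was the lowest and HDLM-2 the highest line for TCF4. SPIB, an ETS factor of B-cells, stood at 8.74 in HDLM-2 and 4.22 in L-540, at least 3.31 apart.

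MAF and GATA3, both known for type 2 helper T-cells, were higher in HDLM-2. MAF stood at 7.52 in HDLM-2 and 2.80 in L-540, and GATA3 at 10.30 in HDLM-2 and 8.26 in L-540, where it was the lowest of the 7 lines. The 3 probe sets of GATA3 ran from 1.01 to 2.59. IKZF4, a factor of regulatory T-cells, stood at 8.04 in HDLM-2 and 6.05 in L-540 with probe sets from -0.05 to 2.78. TBX21, the factor of type 1 helper cells, chosen after its values were seen, stood at 6.67 in HDLM-2 and 6.11 in L-540, a difference of 0.56 at its only probe set, about the size of the spread between probe sets.

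The factors higher in L-540 included TOX, a regulator of T-cell development and exhaustion, with 3.48 in HDLM-2 and 8.49 in L-540. PRDM1, the repressor BLIMP1 of effector lymphocytes, stood at 6.69 in HDLM-2 and 10.18 in L-540, with probe sets from -3.49 to -0.80. CEBPB stood at 7.23 in HDLM-2 and 9.78 in L-540, and IRF8 at 4.75 in HDLM-2 and 7.40 in L-540. FOSL2, an AP-1 factor, stood at 5.74 in HDLM-2 and 7.83 in L-540 with a median difference of -2.09, and L-540 as well as HDLM-2 exceeded the other lines, which had at most 4.92. TCF3 was called higher in L-540, but the median over its 13 usable probe sets was only -0.84.

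The MHC class II genes all had the higher level in HDLM-2 at the median of their probe sets, and 5 of them were called. All 11 measured class II genes with CD74, the invariant chain of class II, had a median difference above 0, from 0.88 to 5.02, and their group median was 1.94, while 12 class I genes had a median of 0.07 and ranged from -0.65 to 0.55. These subsets of the list were formed after the values were seen. HLA-DRA, the alpha chain of HLA-DR, stood at 13.41 in HDLM-2 and 10.82 in L-540, and both probe sets passed the fold with 2.59 and 2.74. HLA-DMB and HLA-DMA, which load peptides onto class II, stood at 10.25 and 10.54 in HDLM-2, against 7.10 and 8.40 in L-540. HLA-DRA, HLA-DMA, HLA-DMB, HLA-DPA1 (13.25 in HDLM-2, 11.84 in L-540) and CD74 (13.22 in HDLM-2, 11.54 in L-540) were highest in HDLM-2 among the 7 lines.

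The HLA-DQ genes were called but their probe sets did not agree in size. Those of HLA-DQA1 read 6.19, 13.01 and 9.53 in HDLM-2, against 7.68, 3.38 and 2.06 in L-540, and those of HLA-DQB1 ran from 0.29 to 5.79. Both genes are highly polymorphic, and the fit of probes to each line's alleles was not tested. CIITA, the transactivator of class II genes, stood at 5.74 in HDLM-2 and 4.58 in L-540 and was under the fold with a median of 0.69. CD80, a costimulatory ligand for T-cells, stood at 9.76 in HDLM-2 and 3.99 in L-540, where it was below background unlike in any other line, and CD86 stood at 10.54 in HDLM-2 and 9.55 in L-540. Over the whole list of 26 measured genes of antigen presentation, CD80 and CD86 among them, 6 were called higher in HDLM-2 (23.1%) and 0 in L-540. The shares of all genes were 3.60% and 1.84%, and the median difference of the list was 0.79.

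The promoters of HLA-DMB, HLA-DMA and CD74 are shown because HLA-DMB and HLA-DMA were past the fold in HDLM-2. CD74, under the fold, acts with them. Promoters of class II genes are known for a CCAAT element, the Y box, but whether any match marked here is that element was not tested. The sequences cover the 250 bases before the start at chr6:32941029-32941278, chr6:32953098-32953347 and chr5:150412911-150413160 of GRCh38.p14, all on the minus strand, from RefSeq. Capitals mark CCAAT on either strand.
HLA-DMB: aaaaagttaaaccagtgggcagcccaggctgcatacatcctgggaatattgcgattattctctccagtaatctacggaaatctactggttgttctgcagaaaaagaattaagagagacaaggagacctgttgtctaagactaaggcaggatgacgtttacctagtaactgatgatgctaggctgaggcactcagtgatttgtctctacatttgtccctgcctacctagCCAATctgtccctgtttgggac
HLA-DMA: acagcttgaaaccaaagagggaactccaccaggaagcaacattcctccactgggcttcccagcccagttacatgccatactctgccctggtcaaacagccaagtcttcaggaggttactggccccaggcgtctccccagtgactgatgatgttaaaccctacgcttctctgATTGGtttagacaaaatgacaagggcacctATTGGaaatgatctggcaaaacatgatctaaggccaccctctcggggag
CD74: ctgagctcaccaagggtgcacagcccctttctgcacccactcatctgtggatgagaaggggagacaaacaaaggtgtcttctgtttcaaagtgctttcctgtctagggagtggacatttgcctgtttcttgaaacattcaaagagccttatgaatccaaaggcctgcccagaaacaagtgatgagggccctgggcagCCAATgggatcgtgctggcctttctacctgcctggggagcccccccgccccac
Of the 10 class II genes, CD74 included, with a promoter in the table, 9 held CCAAT, as did 6 of 10 class I genes and 33.0% of all promoters, so that this element was not restricted to class II genes. HLA-DMA held the element on 2 sites, both on the other strand.

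Of 29 measured genes typical of HRS cells 11 were higher in HDLM-2 (37.9%) and 1, CD70, in L-540 (3.45%). The shares of all genes were 3.60% and 1.84%, and the median difference of the HRS cell genes was 0.40. This list was put together with HL cell lines in mind and shares most of its called members with the groups above. Next to CCL17, CCL22, IL13, IL13RA1, IL6, GATA3, CD40 and CD80 they were the PD-1 ligand genes CD274 and PDCD1LG2 and the tumour antigen gene PRAME. PRAME stood at 8.73 in HDLM-2 and 4.15 in L-540, whereas the other 5 lines had 9.03 to 10.42. For IL6, IL13RA1, CD80, CCL17, LTA, GATA3 and PRAME L-540 was the lowest of the 7 lines. BATF3, ID2 and LGALS1, of the same list, differed by at most 0.21 at the median.

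The list of JAK-STAT and SOCS genes also held the PD-1 ligand genes CD274 and PDCD1LG2. Of its 30 measured members 3 were higher in HDLM-2 (10%, against 3.60% of all genes) and 0 in L-540, with a median of -0.33. The 3 were these PD-1 ligand genes and JAK2, all from chromosome 9, so JAK2 was the only called gene of the pathway itself. JAK2, the kinase of several cytokine receptors, stood at 9.44 in HDLM-2 and 6.89 in L-540, and its 3 probe sets ran from 2.20 to 2.88. CD274 stood at 11.28 in HDLM-2 and 8.49 in L-540, and PDCD1LG2 at 9.33 in HDLM-2 and 5.34 in L-540, with both probe sets of each gene past the fold. In the other 5 lines CD274 had a median of 6.48 but reached 11.52 in SUP-HD1, above HDLM-2. PDCD1LG2 did not exceed 7.54 there, nor JAK2 8.46. The STAT genes did not follow, since STAT3 stood at 9.60 in HDLM-2 and 10.09 in L-540, STAT6 at 8.19 in HDLM-2 and 8.53 in L-540, and STAT5B at 9.53 in HDLM-2 and 9.24 in L-540. Targets and inhibitors of the pathway lay under the fold in both directions. Higher levels in L-540 were those of PIM1 at 7.07 in HDLM-2 and 9.0 in L-540, SOCS1 at 8.48 in HDLM-2 and 10.12 in L-540, and SOCS3 at 9.32 in HDLM-2 and 10.63 in L-540. Higher levels in HDLM-2 were those of SOCS2 at 10.09 in HDLM-2 and 9.31 in L-540, of the phosphatase gene PTPN11 at 10.41 in HDLM-2 and 9.81 in L-540, and of CISH, a target of STAT5, at 10.86 in HDLM-2 and 10.37 in L-540. The genes under the fold were chosen after their values were seen.

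The 3 genes lie in a run of neighbours at the start of chromosome 9 in the RefSeq gene order. From SPATA6L to RIC1, 12 consecutive measured genes had a median difference of 2.69, and 7 of them were called higher in HDLM-2 and none in L-540. Besides JAK2, CD274 and PDCD1LG2 the called genes were SPATA6L, PLPP6, CDC37L1 and RLN2. RIC1 (1.95) and PLGRKT (1.81) were close to the fold without a call. AK3 had a median of 2.10 but was not called, since only 1 of its 2 probe sets passed the fold. RCL1, in the middle of the run, differed by 0.87 with 9.14 in HDLM-2 and 8.92 in L-540. SUP-HD1 was the highest of the other 5 lines for PLPP6, CDC37L1, PLGRKT, CD274, PDCD1LG2 and RIC1. For AK3, JAK2 and RLN2 it was a different line. Over the first 20 measured genes of the chromosome the median was 1.91, against 0.35 over the remaining 499. Among 11900 windows of 20 consecutive genes over all chromosomes the highest median, 2.06, was that from SMARCA2 to BRD10, which spans this run. The run was chosen for its values, so it is described without a test, and DNA copy number was not measured here.

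**Figure D4:**
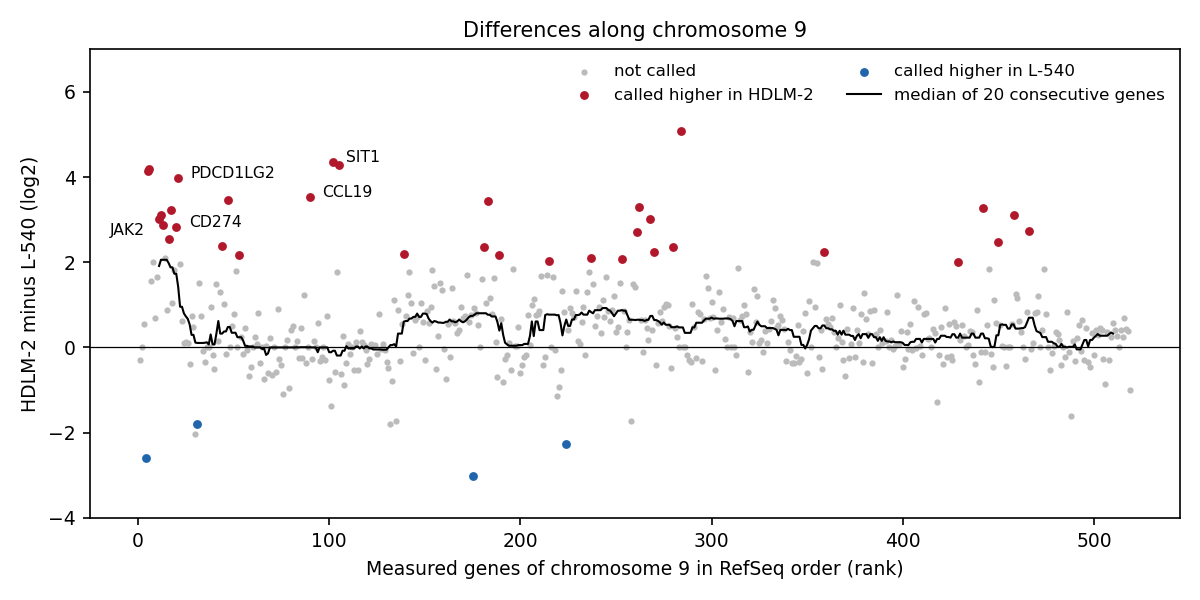
Difference HDLM-2 minus L-540 (log2, vertical axis) of each measured gene of chromosome 9 in RefSeq order (rank, horizontal axis), with red points called higher in HDLM-2, blue points higher in L-540 and the running median of 20 genes as a line. The running median reaches 2.06 among the first genes, where CD274, PDCD1LG2 and JAK2 lie, and lies below 1 along most of the rest.

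Other stretches were shifted less. On chromosome 6 the window from NOTCH4 to HLA-DPA2, which holds the class II genes, had a median of 1.51, and on chromosome 13 that from CLYBL to NAXD had 1.40. In favour of L-540, the windows from TUBD1 to LIMD2 on chromosome 17, CASP8 to ADAM23 on chromosome 2 and EIF2S2 to ERGIC3 on chromosome 20 had medians of -1.25, -1.25 and -1.21. Over whole chromosomes, with genes above background in both lines only, chromosome 20 had the lowest median at -0.93 over 199 genes and chromosome 13 the highest at 0.61 over 128 genes, against 0.01 over all.

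Of 35 measured NF-kB pathway genes 0 were higher in HDLM-2 and 3 in L-540 (8.57%), against 3.60% and 1.84% of all genes, with a median of 0. TNFAIP3, the inhibitor A20 of this pathway, stood at 8.57 in HDLM-2 and 10.68 in L-540, and both probe sets passed the fold with -2.26 and -2.11. IRAK2, a kinase of interleukin-1 and Toll-like receptors, stood at 4.06 in HDLM-2 and 7.24 in L-540. CFLAR, the apoptosis inhibitor c-FLIP, was called on part of its 13 usable probe sets, whose median was -0.30. The subunits NFKB1 (8.05 in HDLM-2, 8.28 in L-540), NFKB2 (8.49 in HDLM-2, 8.04 in L-540) and RELB (6.73 in HDLM-2, 6.64 in L-540) differed by less than the spread between probe sets.

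The list of receptor tyrosine kinases and their feedback genes also held the ligand gene IGF1. Of its 36 measured members 3, IGF1 among them, were higher in HDLM-2 and 3 in L-540 (8.33% each, against 3.60% and 1.84% of all genes). IGF1R, the receptor of insulin-like growth factors, stood at 3.56 in HDLM-2 and 8.97 in L-540, and all 3 usable probe sets passed the fold with bounds from -4.11 to -3.31. Its ligand gene IGF1 stood at 8.32 in HDLM-2 and 6.85 in L-540, with probe sets from 1.47 to 3.89, so ligand and receptor differed in opposite directions. MET, the receptor of hepatocyte growth factor, stood at 3.39 in HDLM-2 and 8.34 in L-540, and HDLM-2 was the only line below 7.27. EPHB1, an ephrin receptor, stood at 9.21 in HDLM-2 and 2.52 in L-540, and the collagen receptor gene DDR2 at 8.15 in HDLM-2 and 5.75 in L-540.

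Of 52 measured Notch, WNT, hedgehog and TGF-beta family genes 2 were higher in HDLM-2 (3.85%) and 1 in L-540 (1.92%), close to the 3.60% and 1.84% of all genes. HEY1, a target of Notch, stood at 4.33 in HDLM-2 and 8.27 in L-540, with HDLM-2 the lowest of the 7 lines, while the receptors NOTCH1 (6.31 in HDLM-2, 5.90 in L-540) and NOTCH2 (9.48 in HDLM-2, 9.35 in L-540) were alike. FZD6, a WNT receptor, stood at 7.35 in HDLM-2 and 2.65 in L-540, and WNT10A at 6.67 in HDLM-2 and 4.65 in L-540. Of 13 measured B-cell genes FCER2 and SPIB were higher in HDLM-2 (15.4%, against 3.60% of all genes) and 0 in L-540. Of 7 measured myeloid genes ITGAM was higher in HDLM-2, with 7.13 in HDLM-2 and 3.66 in L-540, and CSF1R in L-540. These single genes made up 14.3% of the measured myeloid genes each, against 3.60% and 1.84% of all genes.

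**Figure D5:**
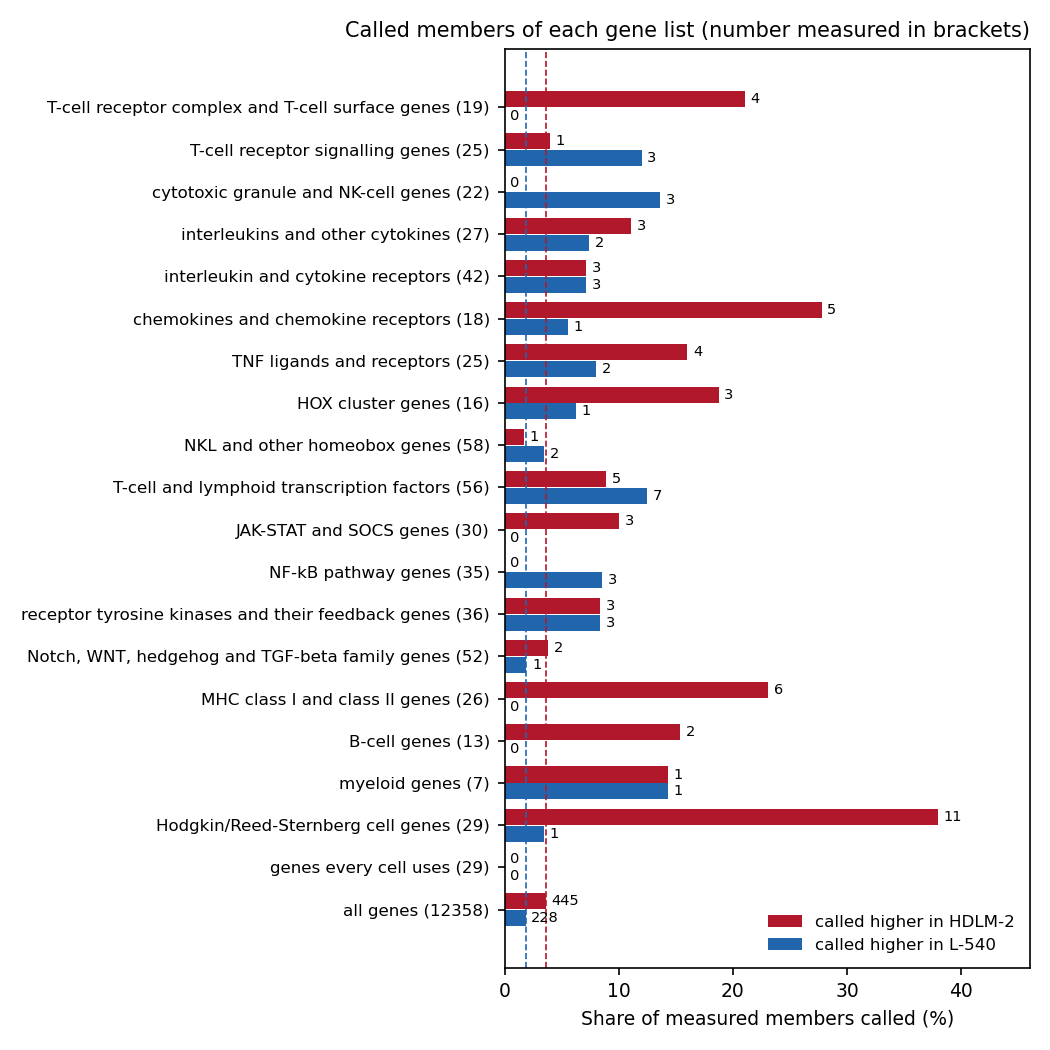
Share of the measured members of each gene list (percent, horizontal axis) called higher in HDLM-2 (red) and in L-540 (blue), by several probe sets or past the fold at the only usable probe set; numbers at the bars are genes, numbers in brackets are measured members, and dashed lines give the shares of all genes (3.60% and 1.84%). HRS cell genes, chemokines and MHC genes have the longest red bars. Myeloid genes (1 gene), cytotoxic genes (3 genes) and T-cell and lymphoid transcription factors (7 genes) have the longest blue bars. No gene that every cell uses was called.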

How the data were processed

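Total RNA of 7 HL cell lines was measured on 1 Affymetrix HG U133 Plus 2.0 array per line. The deposited values are log2 expression levels of 54675 probe sets that the authors obtained by RMA background correction and quantile normalisation; the submitters' processing notes name RMA, affy and limma, with versions not given in the sources used here. Quantile normalisation sets all arrays to like distributions, so a shift of total RNA cannot be seen. No column was left out and no value was missing. The depth of an array is not counted, so precision is limited by having 1 array per line.

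Probe sets were named through the platform annotation, of which 41097 had 1 gene symbol, 1801 several and 11777 none. Only those with 1 symbol were used, and 41043 symbols were matched to the current RefSeq table. Of 19740 genes 12358 had a usable probe set. Differences were computed in Python 3.11.15 with numpy 2.4.6, pandas 2.3.3 and statsmodels 0.14.6. With 1 array per line no test was made and no p-value is given.

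Named genes were the 12 with the largest agreed difference in each direction, up to 5 called members per direction of each of 20 gene lists, and all genes the study names; 108 genes met this rule. Any other gene was named after its values were seen. The members and lists were chosen with earlier results of these data known. Y-linked genes and XIST were left out. Alternatives changed the fold, the background percentile, the floor, the filter, the probe sets used, the normalisation and the agreement rule.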

Additional observations from a re-analysis of the deposited data

How the results depend on the processing

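No paired analysis was possible because HDLM-2 and L-540 were hybridised to 1 array each, without replicate numbers. The 4 counts of called genes (several probe sets in HDLM-2 and in L-540, then single probe sets in HDLM-2 and in L-540; 177, 86, 268 and 142 as reported) moved most with the fold. They were 646, 471, 833 and 601 at a log2 difference of 1, and 60, 23, 110 and 48 at 3. Without a floor they were 280, 162, 425 and 266. Without filter and floor 289 and 162 genes were called by several probe sets. With the 99th percentile as background the counts for L-540 were 47 by several probe sets and 83 by a single probe set. Leaving out probe sets marked _x_at or _s_at, 78 and 28 genes were called by several probe sets, and 100 and 39 where all usable probe sets had to pass. The 90th percentile, the 3 other scalings (array median, quantile normalisation again, loess) and the common floor, which was chosen after the data were seen, left all 4 counts within 1.5 times. Among the called named genes HLA-DQA1 was the only one to change direction, with -1.49 at its brightest probe set. Named genes without a call were not checked for this. Of 1006 values of named genes under the alternatives, 864 moved by less than the spread between probe sets and 141 by more. The cause of these changes was not tested. With 1 array per line, the spread between cultures is unknown, and levels near background carry only bounds.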
